A study of Mus musculus with 2 samples.

Results

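The 10 genes described here encode proteins of the acrosome, the secretory vesicle that caps the sperm nucleus. They are Acr, Acrbp, Acrv1, Spaca1, Spaca4, Spaca7, Spaca9, Zpbp, Zpbp2 and Spam1, chosen by symbol as 10 of the 51868 rows of the count matrix, of which 50686 are genes, and followed in all 2552 cells. The cells came from a piece of testis tissue from each of 2 wild-type C57Bl/6J Crl mice, both 8 weeks old and without treatment, with 1 droplet library for each animal. The suspensions were strained, which keeps somatic cells few. Each library counted unique molecular identifiers (UMIs), the tags that mark single captured RNA molecules, at the 3′ end of transcripts. There was no treated or mutant group, so the comparisons run between stages of sperm formation, with the 2 mice as the replicates.

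The acrosome is built from Golgi-derived vesicles while the round spermatid matures, spreads over the nucleus and releases its contents when sperm meet the egg. Its matrix holds enzymes and zona pellucida binding proteins, and its inner and outer membranes carry proteins of their own. Acr encodes acrosin, the serine protease of the matrix, and Acrbp encodes the protein that binds its precursor, proacrosin. Zpbp and Zpbp2 encode zona pellucida binding proteins of the matrix, Acrv1 a matrix protein of the forming vesicle, and Spaca7 a protein released with the contents. Spam1 encodes a hyaluronidase of the sperm surface and inner acrosomal membrane, and Spaca1 and Spaca4 encode membrane proteins of the acrosome. Spaca9 encodes a protein named for the acrosome that is also known as a microtubule-associated protein of cilia and flagella.

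All 10 genes are annotated as protein coding in GRCm38. Of the matrix genes, Acr lies on the plus strand of chromosome 15 (89568326 to 89574585), Acrbp on the plus strand of chromosome 6 (125049689 to 125063267) and Acrv1 on the plus strand of chromosome 9 (36693220 to 36698843). Zpbp (11279626 to 11462408, minus strand) and Zpbp2 (98551097 to 98558665, plus strand) both lie on chromosome 11, and Spaca7 lies on the plus strand of chromosome 8 (12573029 to 12600744). Spam1 lies on the plus strand of chromosome 6 (24791188 to 24801048) and Spaca1 on the minus strand of chromosome 4 (34024874 to 34050191). Spaca4 is a gene of 1 exon on the minus strand of chromosome 7 (45725107 to 45725813), and Spaca9 lies on the minus strand of chromosome 2 (28692080 to 28699727).

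The genes differed in when their RNA appeared. The sequence before the start site is thus shown for 2 genes counted at high levels in spermatocytes, Zpbp2 and Acrbp. It is also shown for 3 raised mainly in spermatids, Spaca1, Acrv1 and Spam1. Each run covers the 250 bases before the RefSeq start site on the strand of the gene, 5′ to 3′, from GRCm38.p6. The windows are chr11:98550847-98551096 (+) for Zpbp2, chr6:125049677-125049926 (+) for Acrbp, chr4:34050066-34050315 (-) for Spaca1, chr9:36692970-36693219 (+) for Acrv1 and chr6:24790938-24791187 (+) for Spam1. Capitals mark matches to TGACG, the core of the site of CREB and CREM factors, and to CAACNG, the core of the site of MYB factors, on either strand. In GENCODE, the source of the gene positions above, Acrbp starts at 125049689 and Spaca1, on the minus strand, at 34050191. Both positions lie inside the windows given. Part of the Acrbp and Spaca1 runs, with all of their marked sites, thus falls within the gene as annotated there.
Zpbp2: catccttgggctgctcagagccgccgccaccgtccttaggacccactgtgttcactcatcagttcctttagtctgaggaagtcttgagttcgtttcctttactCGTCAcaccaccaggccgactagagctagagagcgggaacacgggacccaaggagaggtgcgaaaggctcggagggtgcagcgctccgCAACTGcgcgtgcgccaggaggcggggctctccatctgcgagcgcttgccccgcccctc
Acrbp: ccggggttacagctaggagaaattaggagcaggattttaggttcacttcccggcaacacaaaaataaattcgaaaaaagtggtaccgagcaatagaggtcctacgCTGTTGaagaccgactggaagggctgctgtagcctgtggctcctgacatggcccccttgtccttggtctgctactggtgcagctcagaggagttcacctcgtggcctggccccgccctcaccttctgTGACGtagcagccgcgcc
Spaca1: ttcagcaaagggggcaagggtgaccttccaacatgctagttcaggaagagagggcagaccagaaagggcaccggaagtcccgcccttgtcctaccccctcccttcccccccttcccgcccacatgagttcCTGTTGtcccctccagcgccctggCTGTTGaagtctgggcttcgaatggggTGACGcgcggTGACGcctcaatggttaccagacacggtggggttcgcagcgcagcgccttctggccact
Acrv1: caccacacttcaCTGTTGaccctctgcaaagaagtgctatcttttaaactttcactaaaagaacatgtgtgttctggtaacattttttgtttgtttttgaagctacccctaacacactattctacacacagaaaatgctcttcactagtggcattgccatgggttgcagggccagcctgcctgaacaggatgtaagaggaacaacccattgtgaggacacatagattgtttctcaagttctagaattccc
Spam1: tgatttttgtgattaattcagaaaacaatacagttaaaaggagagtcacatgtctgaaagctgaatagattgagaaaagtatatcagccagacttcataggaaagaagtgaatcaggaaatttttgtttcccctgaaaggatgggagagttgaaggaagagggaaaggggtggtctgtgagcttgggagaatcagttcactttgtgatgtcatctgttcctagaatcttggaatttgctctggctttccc

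Motifs were counted in RefSeq windows of 300 bases that add the first 50 transcribed bases, and 9 of the 10 genes matched an entry. TGACG was found in 3 of the 9 windows (Acrbp, Spaca1 and Zpbp2) and in 20.8% of 32851 mouse windows of the same length. The longer TGACGT, which contains TGACG, was found in 1 of the 9 (Acrbp, 18 bases before the start) and in 7.51% of all windows. CAACNG was found in 4 of the 9 (Acrbp, Acrv1, Spaca1 and Zpbp2) and in 35% of all windows, and TATAAA in 1 of the 9 (Spaca7) and in 13.6% of all windows. Spam1, Spaca4, Spaca9 and Zpbp held none of these letters in the window. The second CAACNG of Acrbp lies 35 bases after the start, outside the run shown, and Spaca1 has a further RefSeq start 2 bases upstream. Windows with and without TGACG and CAACNG were found both among the genes counted in spermatocytes and among those raised mainly in spermatids.

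The matrix held 27450497 UMIs over 1237 cells of mouse 1 and 30302332 UMIs over 1315 cells of mouse 2. The median cell had 17871 and 19184 UMIs, with no barcode shared between the mice. The 10 genes took 0.319% of the UMIs of mouse 1 and 0.353% of those of mouse 2. Cells were grouped on 27739 rows without the 10 genes and without other listed acrosome genes, and groups were named from marker genes. This gave early spermatocyte-like cells (164), pachytene or later spermatocyte-like cells (526), round spermatid-like cells in 2 clusters and elongating or condensing spermatid-like cells in 2 clusters. The round spermatid-like cells comprised an Ssxb-led cluster (690), in which 3 of 12 round spermatid markers were raised (Ssxb1, Ssxb2 and Lrguk), and a Catsper-marked cluster (449) with 7 of 12. The score of the Ssxb-led cluster was 0.362 for round spermatids and 0.275 for pachytene or later spermatocytes, so its name rests on a narrow margin and on Ssxb genes, a family of near-identical copies. The elongating or condensing spermatid-like cells comprised a deeper cluster (199, median 23567 UMIs) and a shallower cluster (506, median 11705 UMIs), each with 14 of 14 markers raised. A further 6 spermatogonium-like, 7 Sertoli-like and 5 Leydig-like cells were too few for tests.

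Levels are given as the UMIs of a gene per 1000000 UMIs of a cluster (CPM) in mouse 1 and mouse 2, and are compared within a gene only, since 3′ counts carry no length correction. RNA free in the suspension is counted in every cell. The 12 Sertoli-like and Leydig-like cells, which should lack acrosomal RNA, held 135496 UMIs, of which 321 were Prm1, a condensing spermatid gene at 2369 CPM there. In these cells Acrv1, Spaca4 and Spam1 each had 1 UMI (7.38 CPM, exact Poisson 95% interval 0.187 to 41.1), and Acr, Spaca1 and Spaca7 each had 2 (14.8 CPM, 1.79 to 53.3). Spaca9 had 4 UMIs (29.5 CPM, 8.04 to 75.6), Zpbp 9 (66.4 CPM, 30.4 to 126), Acrbp 10 (73.8 CPM, 35.4 to 136) and Zpbp2 13 (95.9 CPM, 51.1 to 164). The upper bounds are used below as a yardstick for free RNA on the CPM scale. They come from cells of low depth, and Prm1 was at a mean of 1256 CPM in the deeper pachytene or later cells. A bound can thus be too high for deeper cells, and a level under it is not shown to be free RNA alone. The bounds pool both libraries, which differed most for Zpbp2. Of its 13 UMIs, 12 were in the 7 cells of mouse 1 (145 CPM, upper bound 254) and 1 in the 5 cells of mouse 2 (18.9 CPM, upper bound 105). The cells of mouse 1 were 6 Sertoli-like and 1 Leydig-like, and those of mouse 2 were 1 and 4. In bounds taken from each mouse, the library thus cannot be told apart from the cell type. Intervals cover counting error only.

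Zpbp2, Acrbp, Zpbp and Acr were above the free RNA bound in pachytene or later spermatocyte-like cells of both mice, whether the bound was pooled or taken from each mouse. Zpbp2 was counted at 256 and 304 CPM in early spermatocyte-like cells, at 1052 and 1013 CPM in pachytene or later cells and at 971 and 912 CPM in the Ssxb-led round cluster. It was lower in each further cluster, at 554 and 527 CPM in the Catsper-marked round and 141 and 118 CPM in the deeper elongating cluster. In the shallower elongating cluster it was at 48.2 and 48.5 CPM. The deeper elongating cluster is listed before the shallower one throughout, an order in time that was not tested. The highest level was thus in pachytene or later cells, and in elongating cells both mice were below the pooled free RNA bound. Against the bound of its own mouse, Zpbp2 of mouse 2 was above it in the deeper elongating cluster (118 against 105 CPM), and Zpbp2 of mouse 1 was level with it in early spermatocyte-like cells (256 against 254 CPM).

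Acrbp followed the same course at 205 and 238 CPM in early spermatocyte-like, 605 and 574 CPM in pachytene or later and 550 and 516 CPM in Ssxb-led round cells. Its later values were 434 and 467 CPM, 283 and 265 CPM and 94.5 and 96.1 CPM in the Catsper-marked, deeper and shallower clusters. Acrbp stayed above its free RNA bound in the deeper elongating cells of both mice. From the Ssxb-led to the Catsper-marked round cluster, Zpbp2 was lower under both scalings described below, while Acrbp missed the threshold under both.

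Zpbp and Acr were lower in early spermatocyte-like cells than in pachytene or later and round cells. Zpbp was counted at 140 and 188 CPM in early spermatocyte-like, 398 and 550 CPM in pachytene or later, 467 and 597 CPM in Ssxb-led round and 455 and 598 CPM in Catsper-marked round cells. In the deeper elongating cells Zpbp was at 225 and 330 CPM, and in the shallower ones at 27.9 and 43.7 CPM. Its early spermatocyte-like values were under the bounds from the same mouse (141 and 193 CPM). Mouse 2 was above mouse 1 at every stage, a difference taken up below. For Acr the values were 115 and 133 CPM, 234 and 223 CPM, 247 and 263 CPM and 287 and 276 CPM over the same 4 clusters. Acr then stood at 187 and 185 CPM in deeper and 24.3 and 20.2 CPM in shallower elongating cells. The acrosin gene thus ranged from 223 to 287 CPM between pachytene or later and Catsper-marked round cells.

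**Figure D1:**
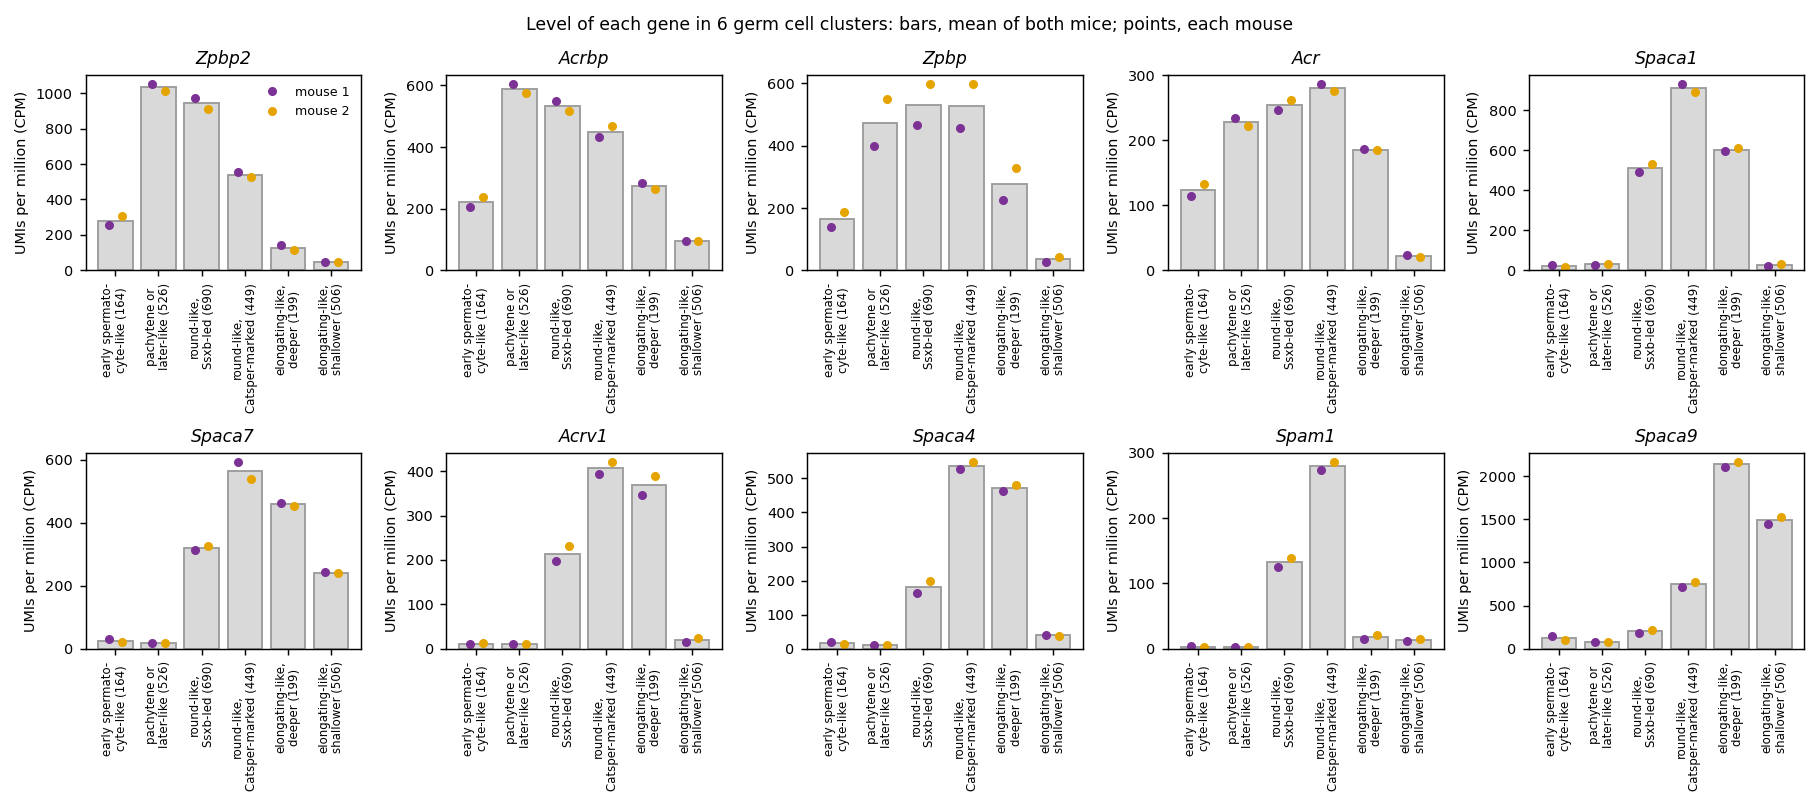
Level of each of the 10 genes, in CPM (vertical axis, starting at 0, with its own scale in each panel), in 6 germ cell clusters (horizontal axis, number of cells in brackets); bars are the mean of both mice and points the single mice. Zpbp2, Acrbp, Zpbp and Acr are already high in pachytene or later cells, Spaca1, Spaca7, Acrv1, Spaca4 and Spam1 are near 0 there and highest in the Catsper-marked round cluster, and Spaca9 is highest in the deeper elongating cluster.

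Spaca1, Spaca7, Acrv1, Spaca4 and Spam1 were at or under the free RNA bound in both spermatocyte clusters and were raised in round spermatid-like cells. Spaca1 was at 29.3 and 15.7 CPM in early spermatocyte-like and 28.0 and 31.5 CPM in pachytene or later cells, and at 493 and 531 CPM in Ssxb-led round cells. It reached 931 and 890 CPM in the Catsper-marked cluster and was at 596 and 609 CPM in deeper and 23.7 and 33.6 CPM in shallower elongating cells. Spaca1 was higher in both mice in each round cluster than in each spermatocyte cluster, an order not counted over all genes. By edgeR's adjusted p under 0.05, as described below, 62.6% of all genes differed between the pachytene or later and the Ssxb-led cluster.

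For Spaca7, the spermatocyte values were 31.1 and 20.6 CPM and then 16.7 and 18.5 CPM, against 313 and 325 CPM in Ssxb-led and 593 and 539 CPM in Catsper-marked round cells. In elongating cells Spaca7 was at 463 and 455 CPM in the deeper and 243 and 240 CPM in the shallower cluster. It was the only one of these 5 genes that stayed above its free RNA bound in the shallower cluster in both mice.

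Acrv1 was at 10.1 and 12.4 CPM in early and 9.98 and 11.5 CPM in pachytene or later cells, at 198 and 231 CPM in Ssxb-led and at 393 and 420 CPM in Catsper-marked round cells. Its level was 347 and 389 CPM in the deeper and 15.8 and 23.5 CPM in the shallower elongating cells. Spaca4 was at 19.2 and 12.8 CPM and at 12.0 and 10.9 CPM in the spermatocyte clusters, then at 164 and 198 CPM and at 528 and 548 CPM in the round clusters. Spaca4 stood at 463 and 480 CPM in deeper and 40.6 and 37.8 CPM in shallower elongating cells. Both genes kept most of their level from the Catsper-marked round to the deeper elongating cluster.

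Spam1 had the shortest window. It was at 3.66 and 2.06 CPM in early and 2.88 and 3.35 CPM in pachytene or later cells, at 125 and 139 CPM in Ssxb-led round cells and at 274 and 286 CPM in Catsper-marked round cells. In the elongating clusters it was at 14.5 and 21.3 CPM and at 12.4 and 15.0 CPM, under the free RNA bound. On the CPM scale the hyaluronidase RNA was therefore above its free RNA bound in the round clusters alone among the 6. That bound rests on 1 UMI, so Spam1 is not shown to be absent from elongating cells. In edgeR with TMM, as described below, Spam1 was higher than in pachytene or later cells by 3.37 in deeper and 3.55 in shallower elongating cells. These are log2 values (adjusted p = 2.59e-11 and 1.21e-11), and 39.2% and 35.9% of all genes were called higher.

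Spaca9 ran later than the others. It was at 147 and 102 CPM in early spermatocyte-like cells, 75.7 and 79.6 CPM in pachytene or later cells and 188 and 217 CPM in Ssxb-led round cells. The values were 717 and 776 CPM in Catsper-marked round cells, 2110 and 2161 CPM in the deeper elongating cells and 1450 and 1525 CPM in the shallower ones. Elongating cells of both mice were above all earlier clusters, an order also not counted over all genes. By mean CPM, 5 of the 10 genes were above their free RNA bound in each spermatocyte cluster (Zpbp2, Acrbp, Zpbp, Acr and Spaca9). The number was 10 in each round cluster, 8 in the deeper and 2 (Spaca7 and Spaca9) in the shallower elongating cluster. With the bound taken from each mouse, both mice were above it for 3 genes in early (Acr, Acrbp and Zpbp2) and 4 in pachytene or later cells (Zpbp in addition), and the numbers in the other 4 clusters were 10, 10, 8 and 2 again. Such bounds were not taken for all genes, so these numbers give no comparison with other genes.

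The share of cells with a UMI followed the levels once each cell was thinned to 5000 UMIs, which removes the difference in depth. Thinned, Spaca1 was found in 17.3% and 19.6% of pachytene or later cells and in 100% and 98.5% of Catsper-marked round cells of mouse 1 and mouse 2. Thinned somatic-like cells held Spaca1 in 0% in both mice. As counted, without thinning, the shares were 45.6% and 53.9% against 100% in both mice, and 2 of the 12 somatic-like cells (16.7%) had a UMI of Spaca1. Spam1 was found in 2.93% and 1.37% of thinned pachytene or later cells and in 76.8% and 75.7% of Catsper-marked cells, and as counted in 9.12% and 10.5% against 99.5% and 98.8%. One UMI of Spam1 was in 1 of the 12 somatic-like cells (8.33%), and the thinned shares there were 0% and 20%. Zpbp2 was found in 99.0% and 99.1% of thinned pachytene or later cells and in 21.7% and 20.9% of shallower elongating cells, and the thinned somatic-like cells held it in 42.9% and 20%, so the later share was not above background. Spaca9 went the other way, from 37.5% and 36.1% of thinned pachytene or later cells to 99.3% and 97.3% of shallower elongating cells, against 28.6% and 20% of thinned somatic-like cells. These somatic-like shares rest on 7 and 5 cells.

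Round spermatid-like cells were compared with pachytene or later spermatocyte-like cells on UMIs summed per mouse and class, with edgeR's quasi-likelihood test and TMM scaling over 15080 genes in 1 fit of 4 classes. Cells were grouped on other genes of the same libraries, so the p-values compare groups made to differ, and they measure only the spread between the sums of 2 animals. Of the 10 genes, 7 rose and 0 fell by edgeR's adjusted p under 0.05 (7 and 0 also at an unadjusted p under 0.05, and 7 and 0 with DESeq2). Of all genes tested, 36.7% rose and 32.9% fell. The median log2 fold change was 3.70 for the 10 genes and -0.0049 for all genes tested. The matrix protein gene Acrv1 rose by 4.99 on the log2 scale (SE 0.20, edgeR adjusted p = 9.95e-15) and the membrane gene Spaca1 by 4.72 (SE 0.19, 1.09e-14). Spam1 rose by 6.17 (SE 0.21), Spaca4 by 5.05 (SE 0.19), Spaca7 by 4.79 (SE 0.17) and Spaca9 by 2.68 (SE 0.18), with edgeR adjusted p-values from 2.48e-15 to 1.35e-11. These 6 genes kept the call under each alternative with a test, and the direction with either mouse alone. The size of the rise rested on the clustering for 5 of them. With cells grouped on the 2000 most variable genes, which put 929 cells in the pachytene or later class in place of 526, the rise was 3.76 for Spam1, 3.95 for Spaca4, 3.10 for Spaca7, 3.06 for Acrv1 and 2.99 for Spaca1.

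Acr, the acrosin gene, was 0.42 higher in round cells (SE 0.15, edgeR adjusted p = 0.0165), which did not hold with library totals in place of TMM (0.22, adjusted p = 0.116) or with the deeper elongating cluster kept apart (0.17, adjusted p = 0.282). As UMIs per cell, which are not divided by the larger total of pachytene cells, Acr was at a mean of 7.77 in pachytene or later and 5.72 in round cells, the reverse order. Acrbp (-0.04, SE 0.15, adjusted p = 0.823), Zpbp2 (-0.22, SE 0.16, 0.236) and Zpbp (0.37, SE 0.23, 0.153) missed the threshold in this fit with edgeR. With the mouse as a block Zpbp was also called, at 0.37 (edgeR adjusted p = 0.00741), and without the filter on low counts at 0.42 (0.0228), and with library totals Zpbp2 was lower by edgeR, at -0.42 (adjusted p = 0.00524). With totals 6 genes rose and 1 fell, against 33.6% and 40.1% of all genes. UMIs per cell were 16.1 in pachytene or later and 11.4 in round cells for Zpbp, 20.05 and 10.7 for Acrbp and 35.1 and 16.6 for Zpbp2. All 4 genes already high in pachytene or later cells were thus lower per cell in the round class. On the TMM scale these 4 had log2 differences between -0.22 and 0.42, and the others had differences of 2.68 and more.

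Elongating or condensing spermatid-like cells were compared with round spermatid-like cells in the same fit, in which they had the lowest TMM scaling factors (0.563 and 0.580, against 1.02 and 0.990 in round cells). With TMM, 2 of the 10 genes rose and 6 fell by edgeR's adjusted p, against 27.7% of all genes higher and 36.6% lower. With library totals, 1 rose and 9 fell, against 18% and 56.8%, and the median of all genes moved from -0.32 to -1.13. Of all genes called, 43.1% were higher with TMM and 24.1% with library totals. Spaca9 rose under both, by 2.84 with TMM (SE 0.17, edgeR adjusted p = 6.81e-12) and 2.03 with totals. Spam1 fell by 2.83 with TMM (SE 0.17, edgeR adjusted p = 7.61e-12) and was at -3.64 with totals. Zpbp2 fell by 2.42 with TMM (SE 0.17, edgeR adjusted p = 8.25e-11) and was at -3.23 with totals. Zpbp (-1.10), Acrbp (-0.73), Acr (-0.72) and Spaca1 (-0.51) also fell with TMM, and were at -1.91, -1.54, -1.53 and -1.32 with totals. The calls of Spaca1 and Acr did not hold throughout, as read from settings whose shares over all genes are not given here. With the DESeq2 Wald test 4 genes fell in place of 6, without Acr (-0.30, adjusted p = 0.0524) and Spaca1 (-0.09, 0.718), and with DESeq2 size factors in edgeR 5 fell, without Spaca1 (-0.09, edgeR adjusted p = 0.636).

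Spaca7, Acrv1 and Spaca4 had no settled direction from the round to the elongating class as a whole. That class joins the deeper and shallower clusters, which were at means of 368 and 19.6 CPM for Acrv1. For Spaca4 the means were 471 and 39.2 CPM, and for Spaca7 459 and 242 CPM. A class value near 0 thus does not mean that both clusters stayed at the round level. Spaca7 was 0.47 higher with TMM (SE 0.14, edgeR adjusted p = 0.00638) and 0.34 lower with totals, as -0.34 (adjusted p = 0.0244). Acrv1 was at 0.00 with TMM (edgeR adjusted p = 0.993) and -0.80 with totals (adjusted p = 0.00021). Spaca4 was at 0.24 with TMM (edgeR adjusted p = 0.162) and -0.57 with totals (adjusted p = 0.00177). Against the median of all genes under the same scaling, the log2 difference of each of these 3 genes was higher.

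The 6 clusters were also fitted on their own over 14145 genes, a choice made after the clusters had been seen, to place each change between neighbouring clusters. No block for the mouse was used in these fits. With TMM Zpbp, which differed between the mice, had an SE of 0.23 at the first step, against 0.14 for Acr and Acrbp. From early to pachytene or later spermatocyte-like cells, 5 genes rose and 0 fell with TMM (25.6% and 24.5% of all genes; at edgeR's unadjusted p under 0.05, 5 and 1), and 4 rose and 2 fell with totals (20.1% and 31.4%). Zpbp2 rose by 2.14, Zpbp by 1.76, Acrbp by 1.67 and Acr by 1.14 with TMM, each also higher with totals. Spaca1 was 0.78 higher with TMM (edgeR adjusted p = 0.00604) and 0.53 with totals (0.0605), at levels under its free RNA bound in both clusters. Spaca7 and Spaca9 were lower with totals, by edgeR at -0.48 (adjusted p = 0.0393) and -0.65 (0.00156).

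From pachytene or later cells to the Ssxb-led round cluster, 6 genes rose and 0 fell under either scaling, by edgeR's adjusted or unadjusted p (31.7% and 30.8% of all genes with TMM, 30.7% and 33.7% with totals). Spam1 rose by 5.46, Acrv1 by 4.38, Spaca7 by 4.24, Spaca1 by 4.16, Spaca4 by 4.04 and Spaca9 by 1.44 with TMM. Zpbp2, Acrbp, Zpbp and Acr had values between -0.09 and 0.23 at this step and missed the threshold under both scalings.

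Between the round clusters, 7 genes rose and 1 fell from the Ssxb-led to the Catsper-marked cluster with TMM (25.8% and 20.2% of all genes), and 6 rose and 1 fell with totals (21.9% and 32.6%). Spaca9 rose by 2.13, Spaca4 by 1.81, Spam1 by 1.33, Acrv1 by 1.17, Spaca1 by 1.08 and Spaca7 by 1.07 with TMM, and all 6 also with totals. Zpbp2 was the gene that fell, by 0.55 with TMM and by 0.80 with totals. Acr was called with TMM alone (0.39, edgeR adjusted p = 0.02; 0.14 and 0.304 with totals).

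From Catsper-marked round to deeper elongating cells, 2 genes rose and 2 fell with TMM (23.4% and 20.9%), and 1 rose and 7 fell with totals (17.2% and 39.3%). Spaca9 rose by 2.03 with TMM and 1.52 with totals. Spam1 was lower under both (-3.42 and -3.94), and so was Zpbp2 (-1.56 and -2.07). Acrv1 was called higher with TMM (0.37, edgeR adjusted p = 0.0462) and had the opposite sign with totals (-0.14, 0.384).

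Within elongating cells, 0 genes rose and 7 fell from the deeper to the shallower cluster with TMM (16.4% and 23.1% of all genes; at edgeR's unadjusted p under 0.05, 0 and 8), and 0 rose and 9 fell with totals (5.99% and 36.6%). The 5 largest falls with TMM were -3.79 for Spaca1, -3.64 for Acrv1, -2.98 for Spaca4, -2.45 for Acr and -2.36 for Zpbp. Acrbp fell by 0.91 and Zpbp2 by 0.80. Spaca7 (-0.32, edgeR adjusted p = 0.0641), Spaca9 (0.09, 0.694) and Spam1 (0.18, 0.582) missed the threshold with TMM. With totals Spaca7 and Spaca9 were lower as well, at -0.93 and -0.52.

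**Figure D2:**
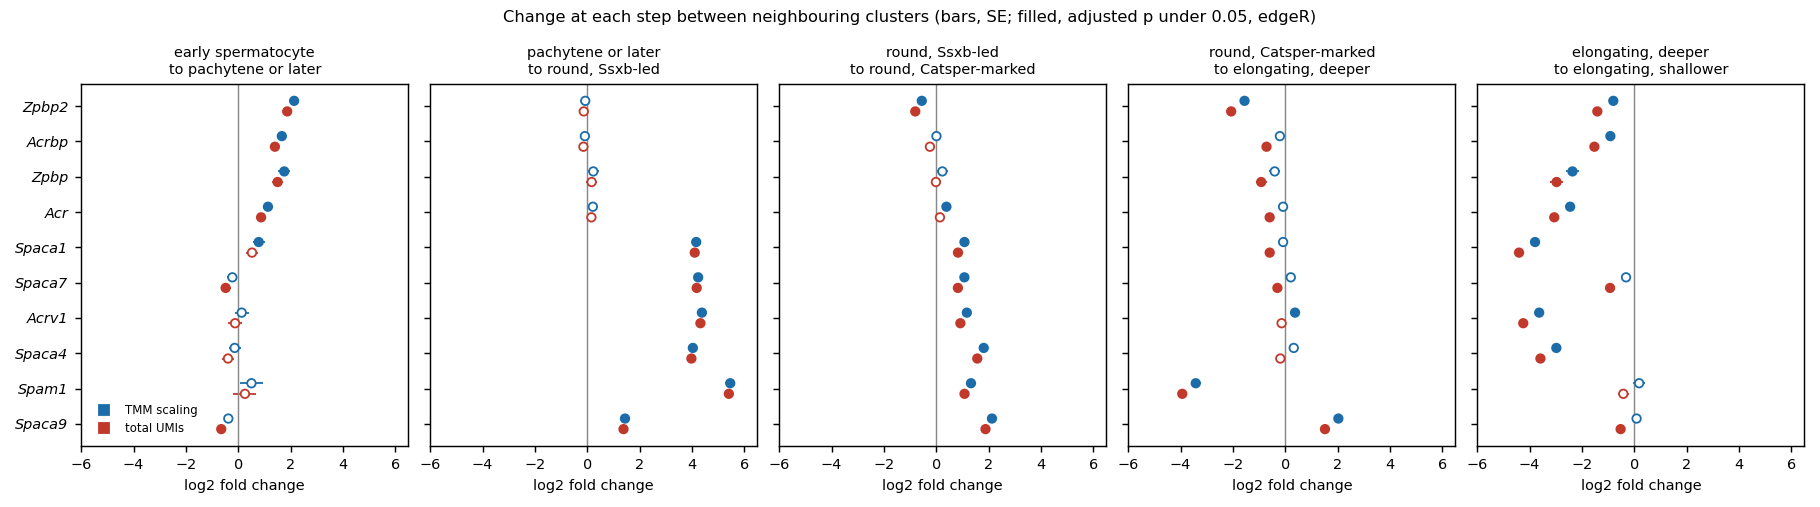
Log2 fold change of each of the 10 genes (vertical axis) at the 5 steps between neighbouring clusters (panels, each cluster minus the one listed before it). TMM scaling is in blue and library totals in red. Bars are the SE and filled points have an edgeR adjusted p under 0.05. Zpbp2, Acrbp, Zpbp and Acr are raised at the first step, and Spaca1 is called there with TMM alone. Spaca1, Spaca7, Acrv1, Spaca4, Spam1 and Spaca9 are raised at the next 2. Spam1 has its fall before the other late genes, and the scalings part most in the last 2 panels.

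Ranked by mean CPM, each gene gives 5 pairs of neighbouring clusters, 50 pairs in all. In 22 pairs the levels differed in the same direction under both scalings, in 14 under 1 scaling only, and in 3 under both in opposite directions. In the other 11 pairs they missed the threshold under both. Between any 2 of the 6 clusters, 39.5% to 80.2% of all genes were called with TMM. The clusters were ranked by the counts that were then tested, and such pairs were not counted over all genes. These numbers thus give no comparison with other genes. Acrbp missed the threshold under both from pachytene or later through Ssxb-led to Catsper-marked round cells, its 3 highest levels (edgeR adjusted p from 0.0744 to 0.978). Zpbp did so over the same 3 clusters (0.0513 to 0.964). A block for the mouse, with which Zpbp was called between the classes, was not tried for the clusters. Zpbp2 and Acr missed the threshold under both scalings between pachytene or later and Ssxb-led round cells. Spaca4 had its highest levels in the Catsper-marked round and deeper elongating clusters, which also missed it (edgeR adjusted p = 0.0584 with TMM and 0.198 with totals), as did Spam1 between the elongating clusters. Acrv1, Spaca4 and Spam1 missed it between the spermatocyte clusters, where all 3 were under their free RNA bounds. For Spaca9 the order from deeper elongating through shallower elongating, Catsper-marked round and Ssxb-led round to early spermatocyte-like and then pachytene or later cells held at each step with library totals. With TMM its elongating clusters and its spermatocyte clusters did not separate (edgeR adjusted p = 0.694 and 0.06).

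Along a diffusion pseudotime of 2534 germ cells in 20 bins of equal cell number, 4 genes reached 50% of their highest bin in bin 2 in both mice (Acr, Acrbp, Zpbp and Zpbp2). Spaca1, Spaca7 and Acrv1 did so in bin 9, Spam1 in bin 10, Spaca4 in bins 11 and 12 of mouse 1 and mouse 2, and Spaca9 in bin 14. The highest bin was bin 3 in both mice for Acrbp, bins 6 and 3 for Zpbp2, bin 8 for Zpbp and bins 17 and 18 for Spaca9. For Zpbp, bins 8 and 12 were nearly level, at 484.2 and 483.9 CPM in mouse 1 and 625 and 624 CPM in mouse 2. With both mice pooled, its highest bin was bin 12. Acr, Acrv1, Spaca1, Spaca4 and Spaca7 were highest in bin 14 in both mice, and Spam1 in bins 13 and 14. In bin 14 Spaca1 was at 1009 and 924 CPM, Acrv1 at 447 and 447 CPM, Spaca4 at 591 and 630 CPM, Spaca7 at 620 and 566 CPM and Acr at 301 and 292 CPM. Of the 6 genes raised mainly in spermatids, 5 thus had their highest bin in bin 13 or 14. Spaca9 had it later, and Acr of the other set shared bin 14. The shared maximum did not hold with shortest paths in place of diffusion, where over both mice it moved from 67.5% of the ordering to 97.5% for Spaca1, Spaca4 and Acrv1, 92.5% for Spaca7 and 47.5% for Acr. Spam1 moved from 62.5% to 87.5%, and was at 47.5% and 42.5% in the single mice. Spaca9 moved from 87.5% to 97.5%, the same place as Spaca1, Spaca4 and Acrv1, and was at 92.5% and 97.5% in the single mice. Its later maximum thus did not hold with shortest paths either. Bins 15 to 20 mix both elongating clusters, with 13 deeper and 66 shallower cells in bin 15 and 30 and 96 in bin 20. The ordering does not separate them.

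**Figure D3:**
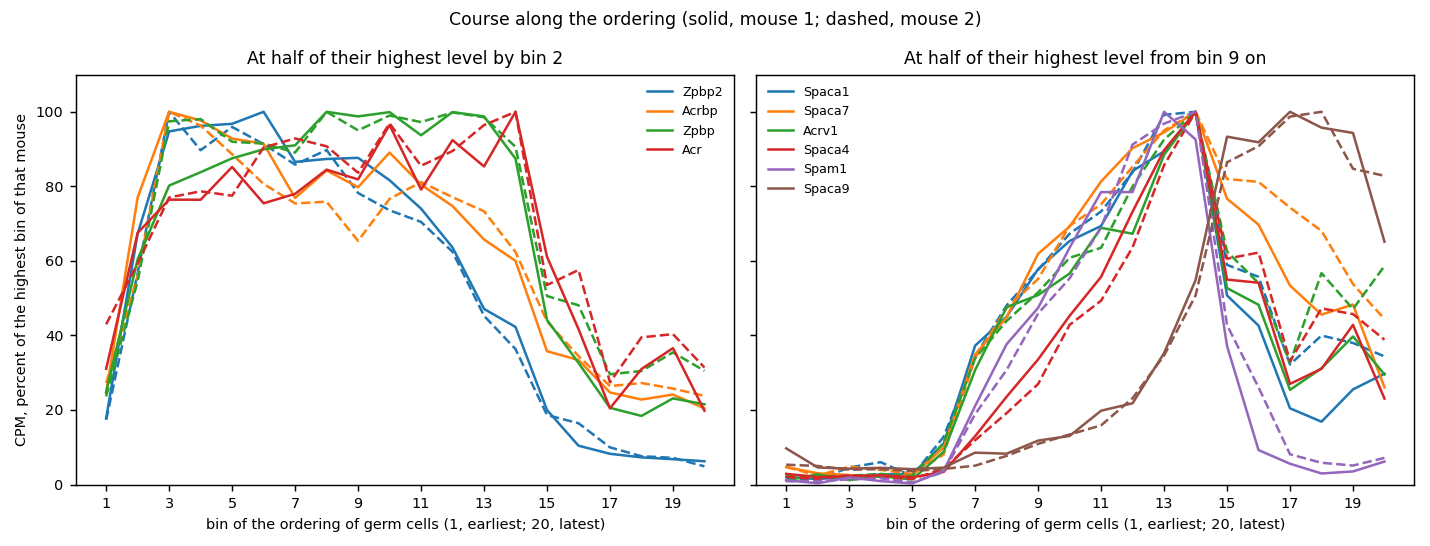
Level of each gene in 20 bins of the ordering (horizontal axis, bin 1 earliest), as a percentage of its highest bin in the same mouse (vertical axis); solid lines are mouse 1 and dashed lines mouse 2. The 4 genes on the left pass 50% in bin 2, and of the 6 on the right Spaca9 passes it last, in bin 14, while Spam1 is back under 50% from bin 15.

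Over the 40 bin values of both mice, on log2(CPM + 10), the 10 genes formed similar sets, with Spaca9 less close to the other late genes. Zpbp2 and Acrbp had a Pearson r of 0.97, Acr and Zpbp of 0.93, and Acr and Zpbp2 of 0.88. Acrv1 and Spaca1 had 0.98, Spaca4 and Spaca7 0.98 and Spam1 and Spaca1 0.89. Spaca9 had 0.31 with Spam1, 0.60 with Spaca1, 0.68 with Acrv1, 0.74 with Spaca7 and 0.79 with Spaca4. Between the sets the values ran from -0.83 for Spaca9 and Zpbp2 to 0.48 for Spam1 and Acr, with Acr and Spaca4 at -0.01. The value of Spaca9 and Spam1 was thus lower than that of Spam1 and Acr across the sets. Bins share libraries, depth and their order, so these values describe likeness of course and carry no test.

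Among 7896 other genes with at least 500 UMIs, the 2 most like each gene by the same r were as follows. Acr was most like Tekt1 (0.958) and Armc3 (0.957), and Zpbp like Tekt1 (0.958) and Gk2 (0.953). Zpbp2 was most like Tbpl1 (0.992), which was also a naming marker of pachytene or later cells, and Pabpc2 (0.992), and Acrbp like Ccdc110 (0.982) and Pabpc2 (0.981). Spaca4 was most like Eqtn (0.995), which encodes the acrosomal membrane protein equatorin, and Best1 (0.993). Acrv1 was most like Tmem190 (0.992) and Spaca3 (0.991), both in the list of other acrosome genes. Spaca1 was most like Pnmal2 and Ccdc81 (both 0.988), Spaca7 like 4930578I06Rik (0.995) and Ttc23l (0.994), Spam1 like Pde4a (0.989) and Shcbp1 (0.984), and Spaca9 like Actrt2 and Fam166a (both 0.993).

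Other acrosomal genes were read from the same fits. Of 24 genes listed by symbol under acrosome contents and membranes, 23 were tested. Beside genes of acrosomal proteins, this list holds a chaperone gene, Pdilt. From pachytene or later to round cells 16 rose and 4 fell (36.7% and 32.9% of all genes), with a median log2 fold change of 4.65. Eqtn rose by 5.83, Pdilt, a chaperone gene of spermatids, by 5.76, Zp3r, a matrix gene, by 5.70 and Izumo1, the gene of the sperm protein for gamete fusion, by 5.14. Spink2, a protease inhibitor gene of the acrosome, fell by 0.41, and Dkkl1, an acrosomal gene, was at -0.16 (edgeR adjusted p = 0.443). The list thus held genes of both courses, as the 10 genes did. From round to elongating cells 4 rose and 9 fell with TMM (median -0.11; 27.7% and 36.6% of all genes) and 1 rose and 20 fell with totals (18% and 56.8%). Hyal6, a hyaluronidase gene, fell by 2.57, Spesp1, a gene of the equatorial segment, by 1.99, Spink2 by 0.97 and Zp3r by 0.74, while Izumo1 (0.37, edgeR adjusted p = 0.0614) and Dkkl1 (0.21, 0.332) missed the threshold with TMM.

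Of 17 genes of acrosome biogenesis, all tested, 3 rose and 7 fell from pachytene or later to round cells (median -0.26; 36.7% and 32.9% of all genes). Fam209 rose by 5.27 and Actl7a, an actin-like gene of the acrosome, by 4.18. Gopc, a Golgi protein gene needed to form the acrosome, fell by 2.94, and Dpy19l2, a gene of the inner nuclear membrane under the acrosome, was at -0.21 (edgeR adjusted p = 0.188). From round to elongating cells 5 rose and 7 fell with TMM (27.7% and 36.6% of all genes), and 2 rose and 12 fell with totals (18% and 56.8%), shares near those of all genes with TMM. Actl9 rose by 2.47, Dpy19l2 fell by 2.41 and Gopc was at -0.31 (edgeR adjusted p = 0.435).

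The mice differed in Zpbp at every stage. Zpbp was higher in mouse 2 in 6 of 6 clusters, by a CPM ratio of 1.28 to 1.56 (median 1.36), and the 95% interval of the ratio for counting error was above 1 in 6 of 6. In the pachytene or later cells the ratio was 1.38 (1.32 to 1.44), from 4148 and 4100 UMIs. In the Catsper-marked round cells it was 1.31 (1.24 to 1.39), from 1967 and 3624 UMIs. A ratio past 1.25 in all 6 clusters, with at least 100 UMIs of both mice together in each, a threshold set after these values were seen, was found higher in mouse 2 in 0.875% of 2172 genes and higher in mouse 1 in 0.737%. By that minimum 5 of the 10 genes could be read (Acr, Acrbp, Spaca9, Zpbp and Zpbp2), and Zpbp alone of them passed. Acrv1 was also higher in mouse 2 in 6 of 6 clusters, by 1.07 to 1.48, with the interval above 1 in 4. With 1 animal on each side there is no test of a difference between mice, and an animal cannot be told apart from its library.

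**Figure D4:**
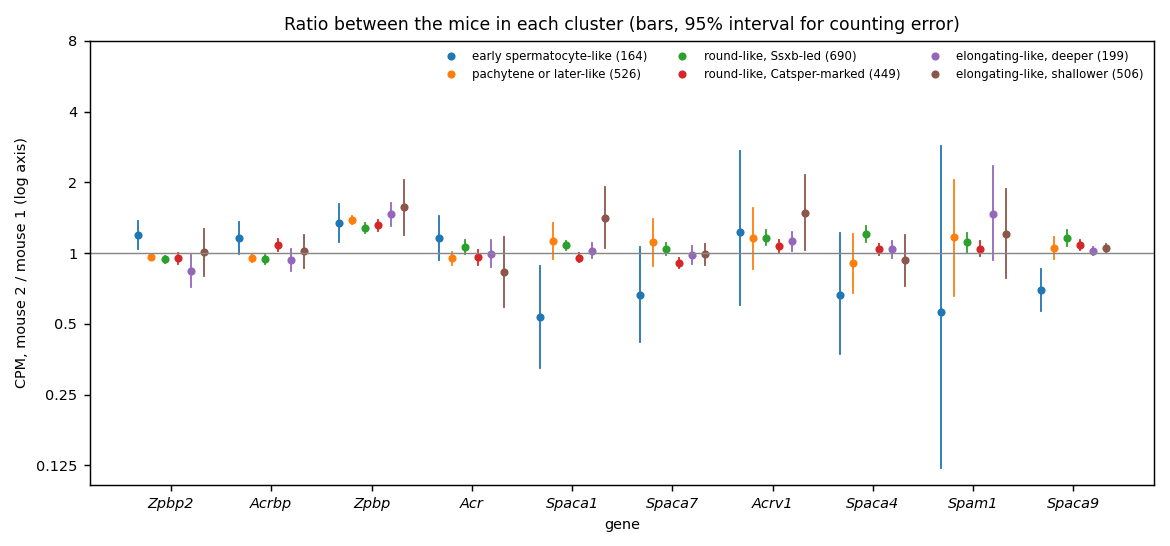
Ratio of CPM in mouse 2 to mouse 1 (vertical axis, log scale) for each gene (horizontal axis) in 6 germ cell clusters (colours); bars are 95% intervals for counting error. All 6 points of Zpbp and their bars lie above 1, and the other genes scatter on both sides of 1 except Acrv1, whose 6 points are above 1.

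Some of these genes overlap others. Fam83e lies across Spaca4 on the opposite strand and had 9266 UMIs against 11070 of Spaca4. The authors list mapping antisense to exons as a category apart, but do not state whether counting used strand. Whether reads of either gene were counted for the other was not tested. Their levels were close up to the Ssxb-led round cluster, with Fam83e at a mean of 11.2 CPM in pachytene or later and 202 CPM in Ssxb-led round cells, against 11.4 and 181 CPM of Spaca4. Fam83e was then the lower of the pair, at 348 against 538 CPM in Catsper-marked round and 253 against 471 CPM in deeper elongating cells, and the higher in shallower elongating cells, at 186 against 39.2 CPM. The annotated neighbours that overlap Acrbp, Spaca7 and Zpbp had at most 46 UMIs each where they had a row, against 25623, 14639 and 23832 for the 3 genes.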

How the data were processed

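Transcripts of single testis cells were counted for 2 mice, each in its own droplet library. The reads were demultiplexed, aligned and counted by the authors with bcl2fastq (2.17.1.14) and cellranger (2.0.0) against repeat-masked GRCm38 with the Ensembl annotation and added RepBase sequences, after which the deeper library was downsampled. The authors deposited whole UMI counts per row and cell without further normalization. All 2552 cells and 51868 rows were kept, and the mouse was taken from the number that ends each barcode. The authors' table of cell types was not used here. Depth was 27450497 UMIs in mouse 1 and 30302332 in mouse 2, from 7114 to 154431 UMIs per cell.

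The 10 genes, the lists, the tests and the naming rules were chosen with earlier results of these data known. K-means (K = 9, 10 restarts, 42 as random seed) was run on 10 principal components without the 10 genes and the listed acrosome genes. A cluster was named for the class whose standardised markers had the highest mean, if at least 3 markers had 1.5 times the CPM of all cells. Doublets were called with scrublet in 25 cells and kept, except in 1 alternative. Sums per mouse and class were tested with edgeR's quasi-likelihood test (TMM, filterByExpr, adjusted by Benjamini-Hochberg over every gene tested), the classes sharing 1 estimate of the spread. In simulated data for the round against pachytene comparison, 190 of 200 genes changed 4-fold were recovered with 8 false calls over 15080 genes. As many genes were changed up as down there, and all others had equal means. In the real comparison edgeR called 69.6% of genes, so the simulation cannot give the number of false calls in it. Sums of 1 animal are paired, and their deviations from class means correlated between classes at 0.0347 to 0.229 over 15080 genes, so a block for the mouse was an alternative. Named beside the 10 genes are the 2 most like each by Pearson's r, the 2 called genes with the largest log2 fold change per list and comparison, and Dkkl1, Zp3r, Spink2, Izumo1, Gopc and Dpy19l2. Positions are from GENCODE for GRCm38 and start sites from RefSeq. No protein sequence was used. The ordering used 30 neighbours and 10 diffusion components. Alternatives were another scaling, DESeq2, no filter, the block, each mouse alone, K = 10, another seed, the 2000 most variable genes, listed genes included, doublets or repeat rows left out, other means, thinning, shortest paths, 10 bins and another starting cell. Library totals, the 6 clusters on their own and the Ssxb-led or the deeper elongating cluster kept apart were added after the data had been seen. Tools were R 4.3.3, DESeq2 1.42.0, edgeR 4.0.16, Python 3.11.15, scanpy 1.11.5, scikit-learn 1.9.0, pandas 2.3.3, matplotlib 3.10.9, scipy 1.17.1 and numpy 2.4.6.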

Additional observations from a re-analysis of the deposited data

How the results depend on the processing

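From pachytene or later to round cells, 0 of the 10 genes fell in the reported fit, and 1, Zpbp2, was lower with library totals, with the 2000 most variable genes, and with the Ssxb-led or the deeper elongating cluster kept apart. With the mouse as a replicate block or without the filter 8 of the 10 rose in place of 7, with Zpbp added, and 6 rose with totals or with the deeper cluster apart, without Acr. The block changed no other call of the 10 genes. From round to elongating cells the number that rose was 4 with DESeq2 size factors and 1 with library totals or with the Ssxb-led cluster kept apart, against 2, and 4 fell with the DESeq2 Wald test and 5 with DESeq2 size factors, against 6. Acrv1 turned to -0.80, Spaca4 to -0.57 and Spaca7 to -0.34 with totals. Acrv1 turned to -2.66 and Spaca4 to -1.82 with the deeper elongating cluster kept apart, and to -0.40 and -0.40 with the Ssxb-led cluster kept apart. As UMIs per cell, the log2 ratio of round to pachytene or later cells turned to -0.45 for Acr and -0.50 for Zpbp, and moved to -0.91 for Acrbp and -1.08 for Zpbp2. Of the other contents and membrane genes, the number that fell from pachytene or later to round cells was 2 with DESeq2 and 1 without a filter, against 4. From round to elongating cells, 10 of them rose and 5 fell with DESeq2, 1 and 20 with totals, and 2 and 15 with the Ssxb-led cluster apart, and 19 fell with the deeper cluster apart, against 4 and 9. Of the biogenesis genes, 11 fell from pachytene or later to round cells with the deeper cluster apart, against 7, and 2 rose and 12 fell from round to elongating cells with totals, against 5 and 7. From round to elongating cells, 27.7% of all genes rose and 36.6% fell with TMM, and 18% and 56.8% with totals. From pachytene or later to round cells the shares were 36.7% and 32.9% with TMM and 33.6% and 40.1% with totals. Shares of all genes under the other alternatives are not given here, so counts under them give no comparison with other genes. The cause of these changes was not tested, beyond the scaling each alternative names. With each mouse alone there is no test, and the folds kept the sign of each called gene. With shortest paths in place of diffusion the ordering changed (Spearman 0.788 over 2534 cells). Over both mice pooled, the highest bin moved from 67.5% of the ordering to 97.5% for Spaca1, Spaca4 and Acrv1, 92.5% for Spaca7 and 47.5% for Acr. It moved from 62.5% to 87.5% for Spam1 and from 57.5% to 27.5% for Zpbp. For Spaca9 it moved from 87.5% to 97.5%, no later than for Spaca1, Spaca4 and Acrv1. With 2 animals, 12 somatic-like cells and a narrow name for the Ssxb-led cluster, free RNA bounds are wide and the place of each rise within the round class rests on that name.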
